A study of Mus musculus with 2 samples.

Results

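The genes described here are 10 markers of tissue macrophages: the receptor genes Csf1r, Cx3cr1 and Mrc1, the 3 complement C1q genes C1qa, C1qb and C1qc, and Aif1, Cd68, Ptprc and Tyrobp. They were taken by the gene name that the array files give to each probe, and all 10 were found, with 15 probes among 39429 probes for 29924 gene names. All 10 passed the filter on dim probes, which 21598 genes passed, and all 15 probes were well above background in both channels of both arrays. Ureters of NMRI wildtype mouse embryos of stage E12.5 had been kept as explants for 18 h at an air-liquid interface. The medium held either 10 µM BIO, an inhibitor of the kinase GSK3 that is used to activate canonical WNT signaling, or the solvent DMSO at 2 parts per 1000. RNA of a pool of BIO-treated ureters and of a pool of control ureters was hybridized to 1 array with 2 colors, and this was done for 2 arrays. Replicate 1 had red BIO RNA against green control RNA, and replicate 2 had the reverse. The explants were whole, with no sorting of cells, so that fewer macrophages and less RNA per macrophage cannot be told apart for any value below.

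Macrophages of embryonic organs descend from blood progenitors that enter the tissue early, and they clear dying cells and debris. Their survival depends on CSF1R, the receptor for the growth factors CSF1 and IL-34. They are recognized by receptors for chemokines and sugars, by the complement protein C1q that they secrete, and by proteins of the leukocyte lineage such as CD45, which is encoded by Ptprc.

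The identity of the measurements rests on the probes, of which those of 4 genes are shown, each 5′ to 3′. Probes of the C1qa and C1qb genes are set side by side because these chains are related, the Ptprc probe because it ends at the stop codon, which is in capitals, and the Tyrobp probe because its bases cross an exon junction. The C1qa probe lay on chromosome 4 at 136452409 to 136452468 of mm9, and the C1qb probe at 136436578 to 136436637, both on the minus strand. The Ptprc probe lay on chromosome 1 at 139961083 to 139961142 on the minus strand, and the 60 bases of the Tyrobp probe were spread over 1728 bases of chromosome 7, from 31200651 to 31202378.
C1qa probe: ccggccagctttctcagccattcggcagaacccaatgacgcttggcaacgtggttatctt
C1qb probe: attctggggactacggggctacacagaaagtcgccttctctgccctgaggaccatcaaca
Ptprc probe: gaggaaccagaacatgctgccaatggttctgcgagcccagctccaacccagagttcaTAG
Tyrobp probe: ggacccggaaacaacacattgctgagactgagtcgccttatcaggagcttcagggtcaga
The longest run of letters that probes of different members had in common was 9 bases, and between the C1q probes it was 6 bases. The C1q probes lay within 15891 bases of each other on chromosome 4, so these are neighboring genes read by probes with different letters.

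PU.1, encoded by Spi1, is a transcription factor of the myeloid lineage whose sites contain the letters GAGGAA. RefSeq promoter windows on GRCm38.p6, from 250 bases before to 50 bases after a gene start, were found for 7 of the 10 genes. Of these genes, Aif1, C1qb, C1qc, Cd68, Mrc1 and Ptprc held GAGGAA on either strand, and Cx3cr1 did not. By window, 6 of the 8 windows of these 7 genes held these letters, against 28.3% of all 32851 windows. Ptprc had a window with the letters and another without them. The longer PU.1 site GAGGAAGT was in 1 of the 8 windows, that of C1qc, against 3.20% of all windows. For CTTTGA, the core of sites for the WNT effectors TCF and LEF, Mrc1 and Ptprc had a match. These were 2 of the 8 windows, against 5257 of all 32851 windows. A match is a description of letters and not a measured binding site. The 250 bases before the start are shown for Cx3cr1, which had the lowest ratio of the 10 genes, for Mrc1, which had the highest, and for the neighbors C1qb and C1qc. Capitals mark GAGGAA or its reverse complement. The windows lie on chr9:120068297-120068546 (minus strand) for Cx3cr1, chr2:14229164-14229413 (plus strand) for Mrc1, chr4:136886201-136886450 (minus strand) for C1qb and chr4:136892915-136893164 (minus strand) for C1qc.
Cx3cr1 promoter: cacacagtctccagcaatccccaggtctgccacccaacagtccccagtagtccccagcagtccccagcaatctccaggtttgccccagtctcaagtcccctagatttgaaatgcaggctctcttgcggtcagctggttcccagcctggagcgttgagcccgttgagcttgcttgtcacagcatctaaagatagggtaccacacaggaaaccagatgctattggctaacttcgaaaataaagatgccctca
Mrc1 promoter: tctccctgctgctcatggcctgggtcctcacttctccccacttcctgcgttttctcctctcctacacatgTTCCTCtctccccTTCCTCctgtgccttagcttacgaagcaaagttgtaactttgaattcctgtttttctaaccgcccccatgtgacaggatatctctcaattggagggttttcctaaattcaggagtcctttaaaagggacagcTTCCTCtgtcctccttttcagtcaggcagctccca
C1qb promoter: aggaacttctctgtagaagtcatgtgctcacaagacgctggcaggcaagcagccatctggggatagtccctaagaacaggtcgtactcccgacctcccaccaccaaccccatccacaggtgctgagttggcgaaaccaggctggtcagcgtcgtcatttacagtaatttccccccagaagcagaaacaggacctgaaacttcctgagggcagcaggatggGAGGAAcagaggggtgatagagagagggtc
C1qc promoter: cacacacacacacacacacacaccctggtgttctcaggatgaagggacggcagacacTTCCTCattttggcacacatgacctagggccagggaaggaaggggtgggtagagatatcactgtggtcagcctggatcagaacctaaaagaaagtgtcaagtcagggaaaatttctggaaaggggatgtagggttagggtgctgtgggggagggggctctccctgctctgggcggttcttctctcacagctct

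To see how macrophage genes behaved when WNT signaling was activated, BIO was compared with control within each array. Of the 10 genes, 6 were lower with BIO in limma's test at an adjusted p of 0.05 and 0 were higher. The 6 were Cx3cr1, Aif1, Ptprc, Csf1r, Tyrobp and C1qa. Among all genes tested 14.8% were called lower and 9.14% higher. In the deposited score table, an alternative source of ratios, these shares turned to 6.11% lower and 8.94% higher. There only 1 of the 10 genes was called lower and 0 were higher. The median log2 ratio of BIO over control was -0.49 for the 10 genes and -0.0081 for all genes tested. The log2 ratio was below 0 on both arrays for 9 of the 10 genes, Mrc1 being the exception, with a mean that changed sign under another centering. The share of all genes tested that were below 0 on both arrays is not given here, so this count has no background. The genes did not move as a unit, since their ratios ran from -1.75 for Cx3cr1 to 0.08 for Mrc1.

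**Figure D1:**
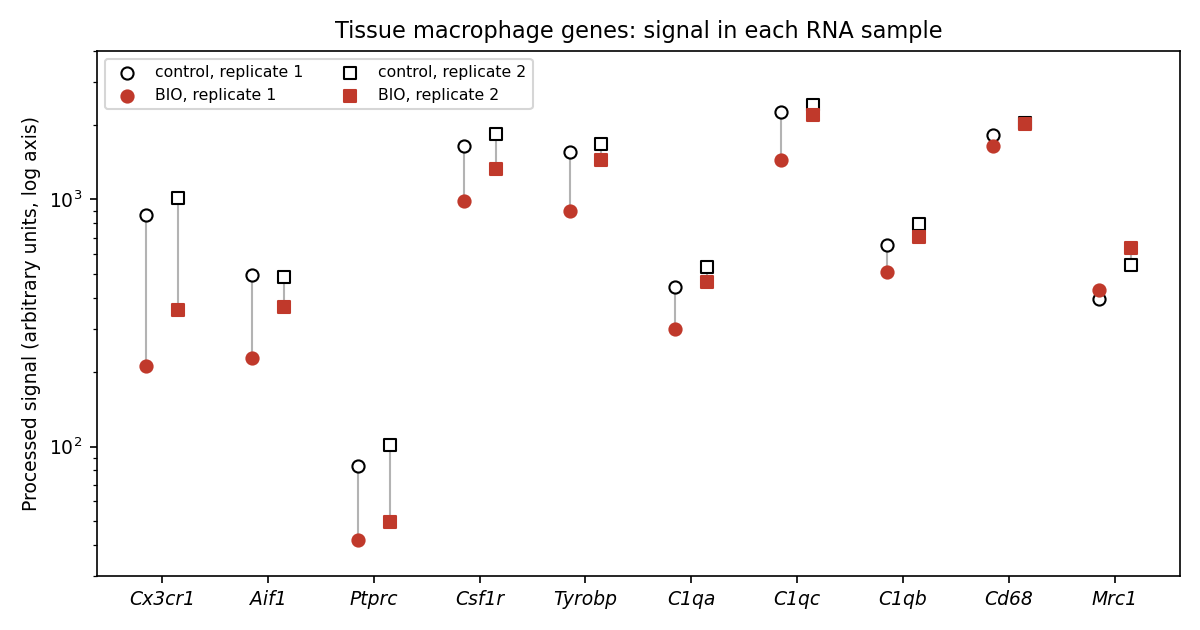
Processed signal (log axis) of the 10 tissue macrophage genes in the control and the BIO channel of both arrays, 1 point per channel and array, with lines joining the channels of an array. Cx3cr1 fell most steeply on both arrays, from 862 to 213 and from 1017 to 357, while in Mrc1 the BIO signal was the higher one on both arrays, at 431 against 397 and 633 against 544.

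Cx3cr1 encodes the receptor for the chemokine fractalkine. Its processed signal, the background-subtracted and dye-normalized intensity, was 862 in the control and 213 in the BIO channel of replicate 1, and 1017 and 357 in replicate 2. Both BIO values were far below both control values. Such signals are set against each other only within a probe and not between genes. The log2 ratios were -2.02 and -1.48, with a mean of -1.75 ± 0.14 (moderated SE, n = 2 arrays; limma adjusted p = 0.000155), which is a 3.36-fold lower level. Every SE and confidence interval given here is limma's moderated one. It draws on the spread of all probes tested and is not the spread of the 2 ratios alone. Only 0.653% of all genes tested had a lower ratio. A second Cx3cr1 probe, 1.39 lower on the log2 scale, lay elsewhere in the gene and was also called lower (limma adjusted p = 0.000182). The third shared 55 of its 60 bases with the first and is not a separate measurement. Cx3cr1 was the single member that was at least 2-fold lower on both arrays with a signal of 100 or more in the brighter channel, a rule that 2.04% of all genes passed in this direction and 1.04% in the other.

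Csf1r, the receptor on which survival of macrophages depends, fell less. Its brightest probe had a processed signal of 1653 in the control and 987 in the BIO channel of replicate 1, and of 1845 and 1327 in replicate 2. The BIO and the control values did not overlap. The log2 ratios were -0.74 and -0.53 (mean -0.64 ± 0.11 moderated SE, n = 2 arrays; limma adjusted p = 0.00538). The probes of this gene differed: another probe, whose 60 bases spanned 361 bases of chromosome 18 and so crossed an exon junction, was lower by a log2 ratio of -0.66, whereas the third had log2 ratios of 0.08 and -0.27 and was not called (limma adjusted p = 0.651). Which transcripts the third probe reads was not tested.

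Mrc1, the mannose receptor CD206 of tissue macrophages, was the one receptor gene of the 3 that was not lower. Its processed signal was 397 in the control and 431 in the BIO channel of replicate 1, and 544 and 633 in replicate 2, so that the values of the groups overlapped between arrays. The mean log2 ratio was 0.08 with a 95% confidence interval from -0.17 to 0.33 (limma adjusted p = 0.647), and it was -0.047 when the arrays were centered on their median in place of loess. Its interval did not overlap those of the brightest Csf1r and Cx3cr1 probes. It did overlap that of the third Csf1r probe, from -0.38 to 0.19.

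Ptprc encodes CD45, the membrane phosphatase carried by leukocytes in general. Its processed signal was 83.0 in the control and 41.9 in the BIO channel of replicate 1, and 102 and 49.6 in replicate 2, so that both BIO values lay below both control values. The arrays gave nearly the same log2 ratio, -0.79 and -0.77, with a mean of -0.78 ± 0.11 (moderated SE, n = 2 arrays; limma adjusted p = 0.00160). This was the member with the smallest difference between the arrays.

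Aif1, which encodes the actin-associated protein IBA1 of macrophages and microglia, had a processed signal of 495 in the control and 227 in the BIO channel of replicate 1, and of 486 and 368 in replicate 2. Both BIO values were below both control values, though by different amounts. The log2 ratios were -1.16 and -0.43 (mean -0.79 ± 0.17 moderated SE, n = 2 arrays; limma adjusted p = 0.0115). Tyrobp encodes DAP12, the adaptor through which activating myeloid receptors signal. Its processed signal was 1554 in the control and 896 in the BIO channel of replicate 1, and 1673 and 1451 in replicate 2, again without overlap. The log2 ratios were -0.86 and -0.22 (mean -0.54 ± 0.16 moderated SE, n = 2 arrays; limma adjusted p = 0.0392).

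The C1q genes encode the 3 chains that together form C1q, the recognition unit of the classical complement pathway. C1qa had a processed signal of 441 in the control and 298 in the BIO channel of replicate 1, and of 534 and 465 in replicate 2. C1qc was at 2266 and 1451 in replicate 1 and at 2421 and 2192 in replicate 2. C1qb was at 655 and 507 in replicate 1 and at 793 and 702 in replicate 2. For C1qa and C1qb the BIO value of replicate 2 exceeded the control value of replicate 1, while the C1qc groups did not overlap. The mean log2 ratios were close to each other, -0.44 for C1qa, -0.41 for C1qc and -0.32 for C1qb. Only C1qa passed the threshold (limma adjusted p = 0.0493). C1qc lay just outside it (limma adjusted p = 0.0539) and C1qb further from it (limma adjusted p = 0.0896). Differences among the 3 chains were not tested.

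Cd68, a glycoprotein of lysosomes that is abundant in phagocytes, had a processed signal of 1827 in the control and 1644 in the BIO channel of replicate 1, and of 2033 and 2025 in replicate 2. The groups overlapped, and the mean log2 ratio was -0.12 ± 0.11 (moderated SE, n = 2 arrays; limma adjusted p = 0.480). Another Cd68 probe had a mean log2 ratio of -0.07 and was not called either (limma adjusted p = 0.704).

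**Figure D2:**
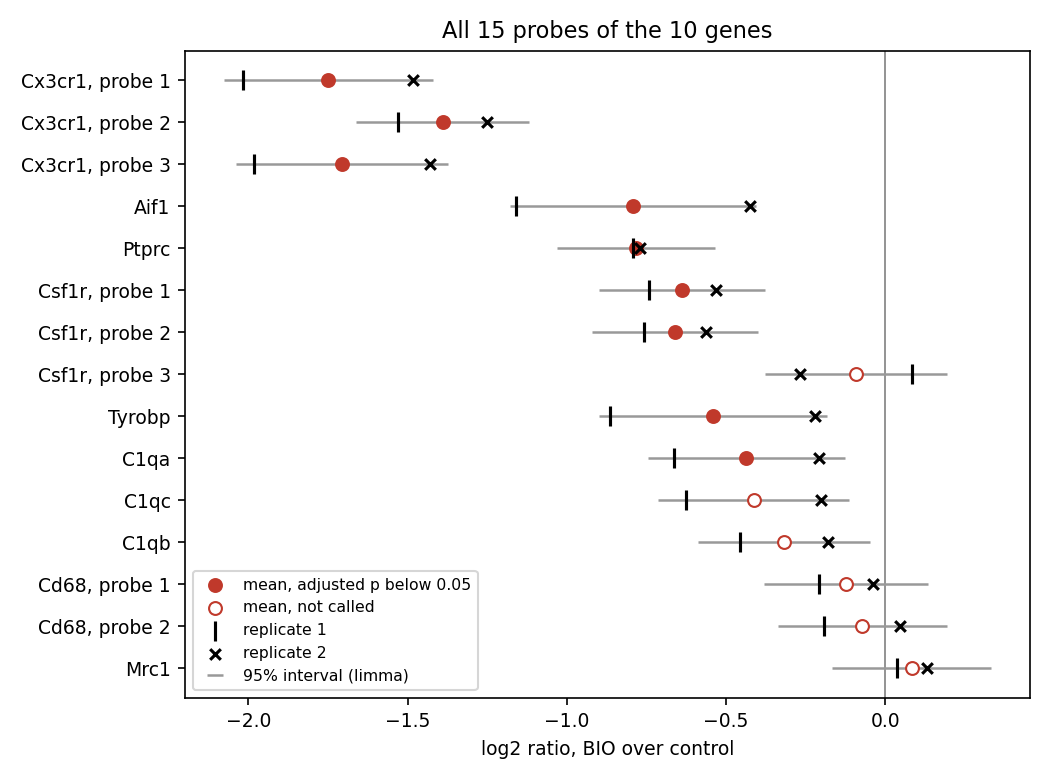
Log2 ratio of BIO over control for all 15 probes of the 10 tissue macrophage genes, with the value of each array, the mean and its 95% confidence interval from limma's fit (n = 2 arrays). The interval of the brightest Cx3cr1 probe, from -2.08 to -1.42, lies apart from those of all other genes. That of the second Cx3cr1 probe, from -1.66 to -1.12, overlaps that of Aif1, from -1.18 to -0.41. The intervals of Mrc1, of both Cd68 probes and of the third Csf1r probe include 0.

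In the order of the ratios Cx3cr1 came first, followed by Aif1, Ptprc, Csf1r, Tyrobp, C1qa, C1qc, C1qb, Cd68 and Mrc1. Aif1 and Ptprc changed places with processed signals (-0.80 for Aif1, -1.05 for Ptprc) and with an offset of 16 (-0.81 and -0.91). For the brightest probe of each gene, the 95% confidence intervals of neighbors overlapped from Aif1 onward. The interval of the brightest Cx3cr1 probe overlapped that of no other member. That of the second Cx3cr1 probe, from -1.66 to -1.12, overlapped that of Aif1, from -1.18 to -0.41. At probe level, 9 of the 15 probes were called lower, against 14.3% of all 28824 probes tested, and 6 were not called. The 9 include both overlapping Cx3cr1 probes. Without adjustment, 8 of the 10 genes were lower at p below 0.05, as were 21.5% of all genes tested. The calls nearest the threshold were the least firm: among 7 alternative treatments of the data with a test, C1qa was called in 1 and Tyrobp in 3, and Aif1, Csf1r and Cx3cr1 in 6. Ptprc was called in all 7 of these alternatives. With the deposited score table, which is rounded, it was the 1 member left below the threshold of the adjusted p.

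The ratios were lower on replicate 1 than on replicate 2 for all 10 genes, by a median of 0.35 on the log2 scale. Replicate 1 was the lower array for 58.6% of all genes tested and for 70.8% of the genes called lower. The median ratio of the 10 genes was -0.70 on replicate 1 and -0.21 on replicate 2. Replicate and dye orientation cannot be told apart with 2 arrays. Among 8 red cell genes replicate 1 gave the lower ratio for 1, and among 10 endothelial markers for 10. The share of spots well above background ran from 70.1% to 80.9% per channel, and the green channel had the higher share on both arrays. Over all probes tested, the ratios of the arrays correlated with r = 0.801 and rho = 0.678, given as a description across probes that share both arrays.

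**Figure D3:**
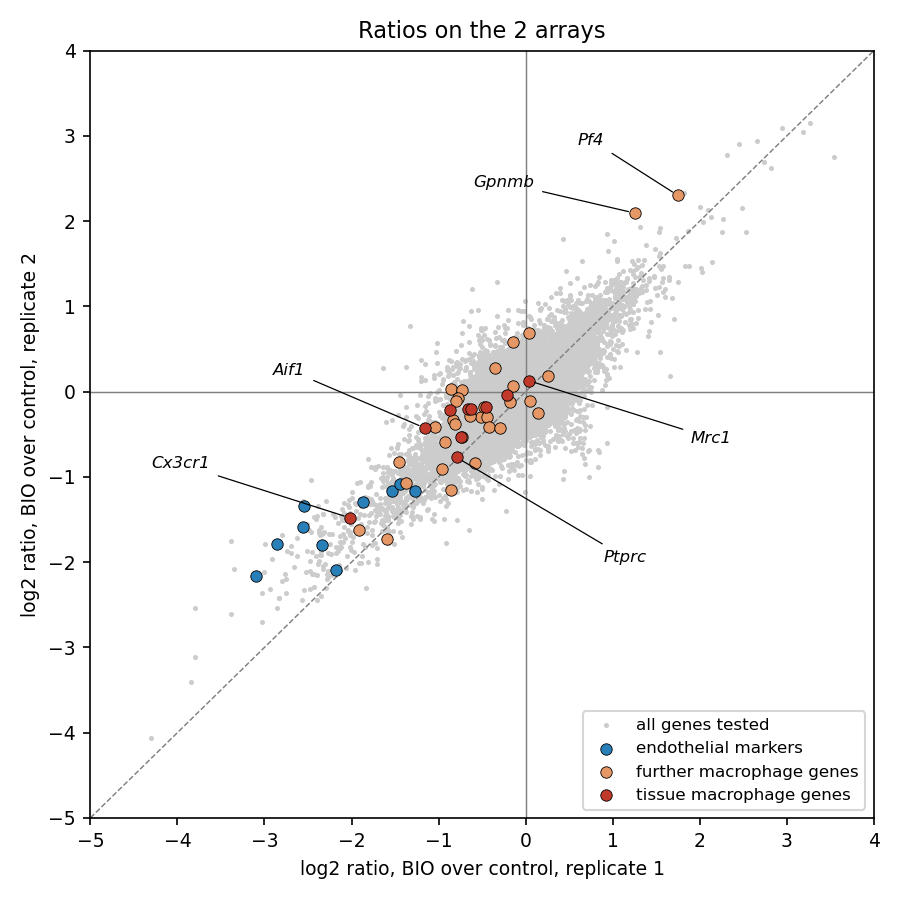
Log2 ratio of BIO over control on replicate 2 against that on replicate 1 for all 21598 genes tested, with the tissue macrophage genes, the further macrophage genes and the endothelial markers in color and the line of equal ratios dashed. All 10 tissue macrophage genes lie above the dashed line, meaning that their ratio was lower on replicate 1, and among the colored genes Pf4 and Gpnmb stand alone at the upper right.

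A second list of 36 macrophage genes held 32 that were tested, of which 17 were lower and 2 higher, with a median log2 ratio of -0.42. The shares among all genes tested were 14.8% lower and 9.14% higher. With processed signals 11 of the list were lower, beside 11.5% of all genes. With the score table the counts were 2 lower and 0 higher, beside 6.11% and 8.94% of all genes. Cd163, F13a1, Fcgr1 and Timd4 did not pass the filter on dim probes. Lcp1, the actin bundler plastin of leukocytes, had a processed signal of 2127 in the control and 561 in the BIO channel of replicate 1, and of 2658 and 863 in replicate 2 (mean log2 ratio -1.76, limma adjusted p = 7.91e-05). The ratio of Cd52, a small glycoprotein of the leukocyte surface, was of like size at -1.66. Spi1, which encodes PU.1, was lower by a log2 ratio of -0.71 (limma adjusted p = 0.00369). Adgre1, which encodes the macrophage surface protein EMR1, was not called at a log2 ratio of -0.04, with -0.35 on replicate 1 and 0.28 on replicate 2.

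The 2 genes of this list that were higher stood far from the others. Pf4, a chemokine of platelets and of some tissue macrophages, had a processed signal of 572 in the control and 2104 in the BIO channel of replicate 1, and of 711 and 3570 in replicate 2. Gpnmb, a glycoprotein of phagocytes and pigment cells, had 160 and 446 in replicate 1 and 123 and 659 in replicate 2. In both genes the BIO values lay above all control values. The mean log2 ratio was 2.03 for Pf4 (limma adjusted p = 9.72e-05) and 1.67 for Gpnmb (limma adjusted p = 0.000535). Of the 6 megakaryocyte and platelet genes, Ppbp, a platelet chemokine gene on the same chromosome as Pf4, was higher by a log2 ratio of 1.02, and the other 5 were not called. Among all genes tested 9.14% were called higher and 14.8% lower. Only 3 of these 6 genes were well above background in every channel, so a missing call says little here. The summed signal of these 6 genes was 138 to 183 in the control channels and 182 to 229 in the BIO channels. Ppbp alone went from 30.1 to 77.2 in replicate 1 and from 35.4 to 120 in replicate 2. Here and below, a summed signal is weighted toward the brighter or more changed probes of a list and does not compare genes.

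Among the ligands for macrophage receptors, Csf1 and Il34, which both signal through CSF1R, were not called. Csf1 had a processed signal of 1304 in the control and 1210 in the BIO channel of replicate 1, and of 1359 and 1309 in replicate 2 (mean log2 ratio -0.11, limma adjusted p = 0.518). Il34 was dim, with signals of 18 to 24 in all channels and a mean log2 ratio of -0.20 (limma adjusted p = 0.217). The ligand of CX3CR1, fractalkine, was lower together with its receptor: Cx3cl1 went from 98.3 to 38.04 in replicate 1 and from 117 to 59.5 in replicate 2 (mean log2 ratio -0.90, limma adjusted p = 0.00120). The chemokine gene Cxcl12 was lower by a log2 ratio of -2.27 (limma adjusted p = 3.18e-05). Ccl2, which attracts monocytes, was lower by -1.61 on replicate 1 and by -0.35 on replicate 2 (mean log2 ratio -0.98, limma adjusted p = 0.0235). Csf2 was not tested, being too dim.

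Of 15 genes for partners of DAP12 and CD45 in signaling, among them receptors, adaptors, kinases and phosphatases, 11 were tested, 5 were lower and 0 higher, with a median log2 ratio of -0.39. The lower genes included Inpp5d, which encodes the lipid phosphatase SHIP1 (log2 ratio -0.89), the kinase genes Syk (-0.51) and Lyn (-0.44), and the phospholipase gene Plcg2 (-0.51). Of 16 complement genes outside C1q, 6 were lower and 2 higher, with a median of -0.20. For both lists the shares among all genes tested were 14.8% lower and 9.14% higher. Cd55, a membrane inhibitor of complement that many cell types carry, had the lowest log2 ratio at -2.39. Masp1, a protease of the lectin pathway, was at -0.71 and Serping1, the inhibitor of C1, at -0.56, whereas C2 was higher at 0.69.

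**Figure D4:**
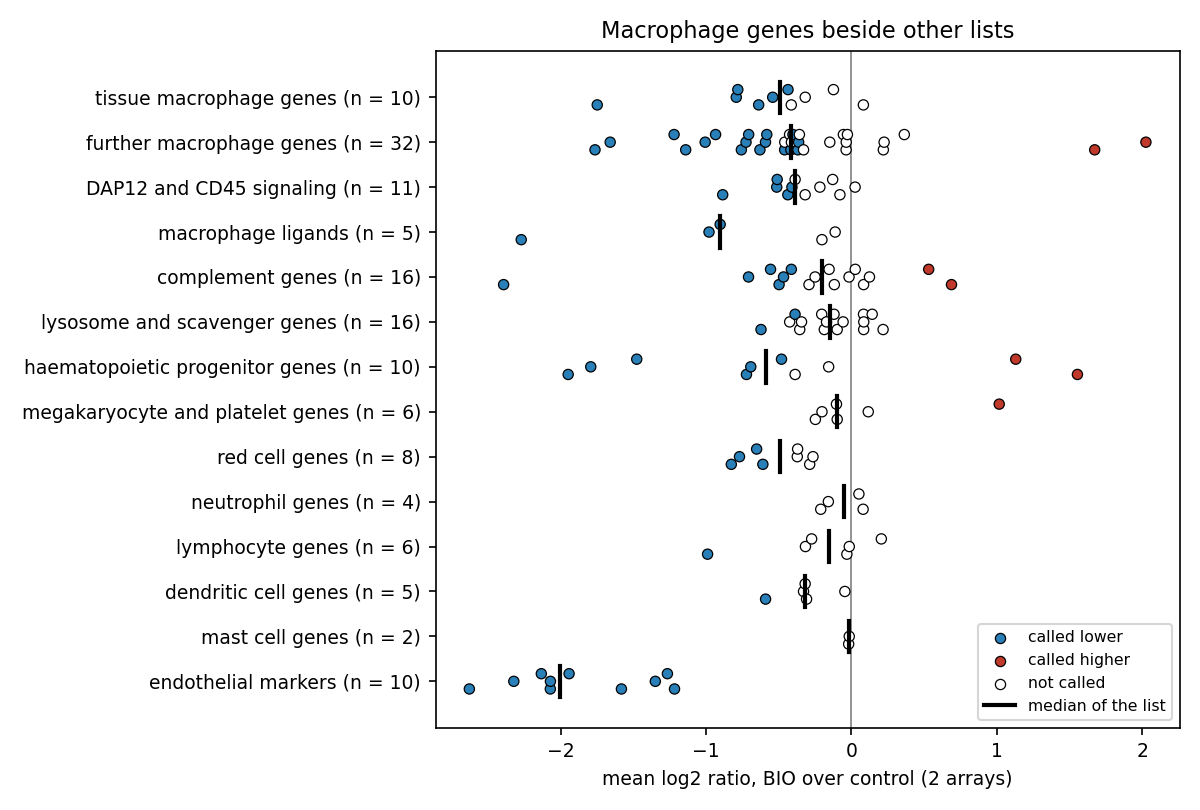
Mean log2 ratio of BIO over control for each tested gene of the macrophage lists and of lists for other blood and endothelial cells, 1 point per gene, colored by its call, with the median of each list. Endothelial markers lie lowest, with a median of -2.01, and the tissue macrophage genes have a median of -0.49.

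All 10 ureteric mesenchyme and all 10 ureteric epithelium markers were well above background in every channel. Of the mesenchyme markers 8 were lower and 1 higher, with a median log2 ratio of -0.76 and summed signals of 322683 and 355567 in the control against 195306 and 215113 in the BIO channels. Of the epithelium markers 4 were lower and 0 higher, with a median of -0.21 and summed signals of 91529 and 93259 against 55956 and 65475. All 10 endothelial markers were lower, with a median log2 ratio of -2.01 and a summed signal of 31523 and 37964 in the control against 6038 and 11293 in the BIO channels. The summed signal of the 10 tissue macrophage genes was 10234 and 11448 in the control against 6696 and 9570 in the BIO channels. Of 8 red cell genes 4 were lower, with a median of -0.49 and summed signals of 195370 and 224563 against 145061 and 122161. All 9 canonical WNT targets were higher, with a median of 1.32, as were all 11 cell cycle genes, with a median of 0.99. Beside all these counts, 14.8% of all genes tested were called lower and 9.14% higher. The part of a changed cellular makeup in the ratios of the macrophage genes was not tested.

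Among 10 genes of haematopoietic progenitors 6 were lower and 2 higher, beside 14.8% and 9.14% of all genes tested. Cd34 (log2 ratio -1.95), Tal1 (-1.79) and Kit (-1.48) were lower, and Myb (1.55) and Runx1 (1.13) were higher. The first 3 are also used by endothelial, red cell or mast cell lineages. Gata2 was lower too (-0.69), and by in situ hybridization the paper detected it in the ureteric mesenchyme of older control embryos. The list therefore does not read blood progenitors alone. Genes of other leukocytes were often too dim to test: 4 of 8 neutrophil genes, 6 of 12 lymphocyte genes, 5 of 8 dendritic cell genes and 2 of 6 mast cell genes were tested. Of these, Cd79b, a part of the B cell receptor (-0.99), and Itgax, the integrin CD11c that some macrophages also carry (-0.59), were lower, and 0 were higher. The neutrophil genes S100a8 and S100a9 did not pass the filter on dim probes.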

How the data were processed

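Both arrays were Agilent 2-color arrays. Per the file headers, the authors quantified them with Agilent Feature Extraction 10.7.3.1. The deposited files give mean spot and median background intensities without correction, and processed signal intensities that the software had background-subtracted and dye-normalized. The authors also deposited a table with 1 score per probe and array, with no account of how it was made. Compared with the processed signals it behaves as a fold change that carries the sign of the direction. Its centering is unknown, and its median was 1 on both arrays.

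Intensities were corrected by normexp with an offset of 50, which pulls ratios of dim probes toward 0, and normalized by loess within each array with limma 3.58.1 in R 4.3.3. Control and outlier spots had weight 0 and were left out. Outliers made up 3.49% and 3.16% of the spots, and 0 spots were saturated. Spots of a probe were averaged. Probes were tested (28824) when more than a share of 0.5 of their spots were well above background in 1 treatment on both arrays. A gene was represented by its brightest tested probe. Ratios of replicate 2 were turned to read BIO over control. limma's lmFit and eBayes then gave a two-sided test of the 2 ratios against 0, and p-values were adjusted by Benjamini-Hochberg over all probes tested, at 0.05. No dye term could be fitted with 2 arrays. Separate pools of ureters are described, so each array was taken as 1 replicate. The number of arrays limits the precision (median moderated SE 0.111). SE and confidence intervals come from eBayes, so they are not the spread of the 2 ratios alone. For the 2-fold rule, processed signals were raised to a floor of 15, and the rule has no test. Printed signals are means over spots without that floor. Alternatives were processed signals, median centering, an offset of 16, no filter on dim probes, the mean over probes, an intensity trend with a robust prior, the score table, leaving out either array, and other settings of the 2-fold rule.

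The members and all lists were chosen with earlier results of these data known. Named are all members with every probe, all macrophage ligands, up to 4 called genes with the largest ratios from each other list, and single genes for their role. Coordinates of probes are on mm9 per the file headers, and promoter windows are RefSeq's on GRCm38.p6. These builds were not combined.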

Additional observations from a re-analysis of the deposited data

How the results depend on the processing

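No paired analysis was possible beyond the test itself, which is already paired by array, because a further replicate block on its 2 ratios would leave no residual degree of freedom. Of 70 ratios of single tissue macrophage genes recomputed with a test, 54 kept their direction and their side of the threshold, 13 were no longer called, 2 were newly called and 1 reversed, namely Mrc1 at -0.047 with median centering. The count of 6 lower genes, beside 14.8% of all genes tested, changed with the setting. It became 4 with processed signals (11.5% of all genes lower), with an offset of 16 (13%) and without the filter on dim probes (9.74%). With median centering it was 5 (8.99%), and with the mean over probes 7 (15.8%). It was 1 with the score table (6.11%), where Ptprc remained. The 17 lower genes of the further list, of 32 tested, became 11 with processed signals and 2 with the score table. Its 2 higher genes became 0 with the score table, where 6.11% of all genes were lower and 8.94% higher. There 6338 probes (22.0%) had identical values on both arrays. The 2-fold rule passed 1 member, 0 at 3-fold, and 2 both without replicate 1 (Cx3cr1, Ptprc) and without replicate 2 (Aif1, Cx3cr1). The median of the tissue macrophage genes was -0.21 without replicate 1 and -0.70 without replicate 2, and that of the further list -0.29 and -0.61. With 1 array no test could be made. The causes of these changes were not tested.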

Other observations

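Lysosomal and scavenger genes, which macrophages share with many other cells, were tested in a list of 16. Of these, 2 were lower and 0 higher, beside 14.8% called lower and 9.14% called higher among all genes tested, and the median log2 ratio was -0.15. The lower genes were Cd36, a scavenger receptor for lipids (-0.62), and Ctsd, a lysosomal protease (-0.39). The summed signal of this list was 230249 and 245708 in the control and 207343 and 229875 in the BIO channels. Cd68, a lysosomal protein among the tissue macrophage genes, was at -0.12 and was not called.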
